A study of Mus musculus with 3 samples.

Results

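Cytosolic ribosomal protein genes encode the proteins that, with ribosomal RNA, build the large and small subunits of the ribosome outside mitochondria. Members were all genes whose only symbol in the array's platform annotation starts with Rpl or Rps and a digit, or is Rplp0, Rplp1, Rplp2 or Rpsa; Rps6k kinases, symbols containing bp1 and pseudogene symbols were left out. The rule gave 62 of 19938 named genes, read by 218 probe sets: 33 standard large subunit genes, 21 standard small subunit genes and 8 paralogs or retrogenes. Levels came from thymocytes (immature T cells that develop in the thymus) labelled wt by genotype, on a mixed FVB and C57BL6 background. The titles number the 3 samples 92, 103 and 106, which are read here as numbers of 3 mice; the labels do not say so outright. RNA was extracted with Trizol, and each sample gave 0.3 µg of RNA with an RNA integrity number of 3, a low value that the samples share. The disease state entry reads T cell lymphoma for all 3 samples, although their titles and genotypes read wt, and the labels used here give neither age nor sex. The lymphomas of the study were not analysed here, so the only comparison is between mice of 1 group.

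A ribosome needs its proteins in fixed proportions, and their genes are transcribed at high rates in growing cells. Their mRNAs start with a short run of pyrimidines, the terminal oligopyrimidine (TOP) motif, through which mTOR signalling and the RNA-binding protein LARP1 control their translation. Thymocytes divide fast at the beta-selection checkpoint, and loss of single ribosomal proteins can act on blood cell lineages selectively: inherited mutations cause Diamond-Blackfan anaemia, and somatic ones occur in human T cell leukaemia.

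The deposited values were levels on a log2 scale, so that a difference of 1 is a 2-fold change. The array medians over 35557 probe sets lay between 6.70 and 6.72, and 3 arrays limit the precision of every value. Thymocyte markers were above background in 9 of 9 measured genes, and limma with Benjamini-Hochberg adjustment called 0 of them for variation, with 1 at an unadjusted p under 0.05. Cd8a, the coreceptor chain, had levels of 13.25, 13.18 and 13.22 in mice 92, 103 and 106, and Cd3g, a CD3 chain, had levels of 13.33, 13.31 and 13.25. Their widest ranges were those of Rag1, the recombinase gene, at 13.81, 13.38 and 13.58, and of Cd1d1, which presents lipids to NKT cells, at 9.27, 9.47 and 8.61. In mouse 106, 0 of 9 were higher than in mouse 92, and 2 and 3 of 9 under quantile and cyclic loess scaling. The mean level of 10 neutrophil genes was 6.10, 8.06 and 7.64, that of 7 B cell genes 6.72, 7.90 and 7.58, that of 5 erythroid genes 7.03, 7.99 and 7.66, and that of 10 macrophage and dendritic cell genes 7.55, 8.18 and 7.78. On all arrays 6 of 10, 5 of 7, 4 of 5 and 9 of 10 of these genes were above background. All 4 means were lowest in mouse 92 and highest in mouse 103. Limma with Benjamini-Hochberg adjustment called 6 of 10 neutrophil, 1 of 7 B cell and 1 of 4 tested erythroid genes. It called 0 of 9 tested macrophage and dendritic cell genes, of which 5 had an unadjusted p under 0.05. Over all tested genes the share called was 0.225%. Genes were tested if above background on at least 1 array. Mmp8, a called neutrophil gene at 4.40, 6.36 and 5.83, passed only in mouse 103. Cr2, the B cell gene called, was at 5.74, 7.32 and 7.01, below background in mouse 92. The lists were chosen with earlier results of these data known, so their counts are description only. The range between mice on the log2 scale was 0.92 for Elane and 1.37 for Camp, the smallest of the neutrophil list, and 2.75 for Ngp and 2.78 for Lcn2, the largest. For B cell genes it was 0.995 for Ms4a1, 1.02 for Pax5, 1.39 for Bank1 and 1.57 for Cr2. It was 0.16 for Klf1, 0.38 for Car2, 1.17 for Car1 and 1.96 for Alas2 among erythroid genes, and 0.34 for C1qa, 0.35 for Adgre1, 1.07 for Fcer1g and 1.31 for Lyz2 among macrophage and dendritic cell genes.

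Not every ribosomal protein could be read on its own. Of 79 standard subunit genes, 55 had a probe set that carried no other symbol; among them Fau, which encodes Rps30 as a fusion with a ubiquitin-like protein, lies outside the naming rule. Another 16 genes, Rpl11, Rpl35a, Rps24 and Rps26 among them, occurred only on probe sets shared with other symbols and were not given a value. The remaining 8 were not listed in the annotation. Rpl22l1, the paralog of Rpl22, also occurred only on shared probe sets, so the pair could not be compared here. Ribosomal protein genes have left many processed pseudogene copies in the mouse genome, and which probe sets also match such copies was not tested.

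The genes of the standard subunits were above background throughout, and those below it on every array were paralogs. Of the 62 genes, 59 exceeded background on all 3 arrays, against 61.8% of all named genes; background was the 95th percentile of 1207 receptor genes for odours, pheromones and trace amines, which lay between 5.91 and 6.10. All 33 large subunit genes, with mean levels from 7.08 to 13.38, and all 21 small subunit genes, with mean levels from 9.50 to 12.88, passed. Levels of different genes were not ranked, because probes differ in affinity. Only Rpl3l, Rpl10l and Rpl39l stayed below background on every array. With the 99th percentile of the receptor genes as background, 56 genes passed, and the additional losses were Rpl34, Rps4l and Rps23rg1.

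**Figure D1:**
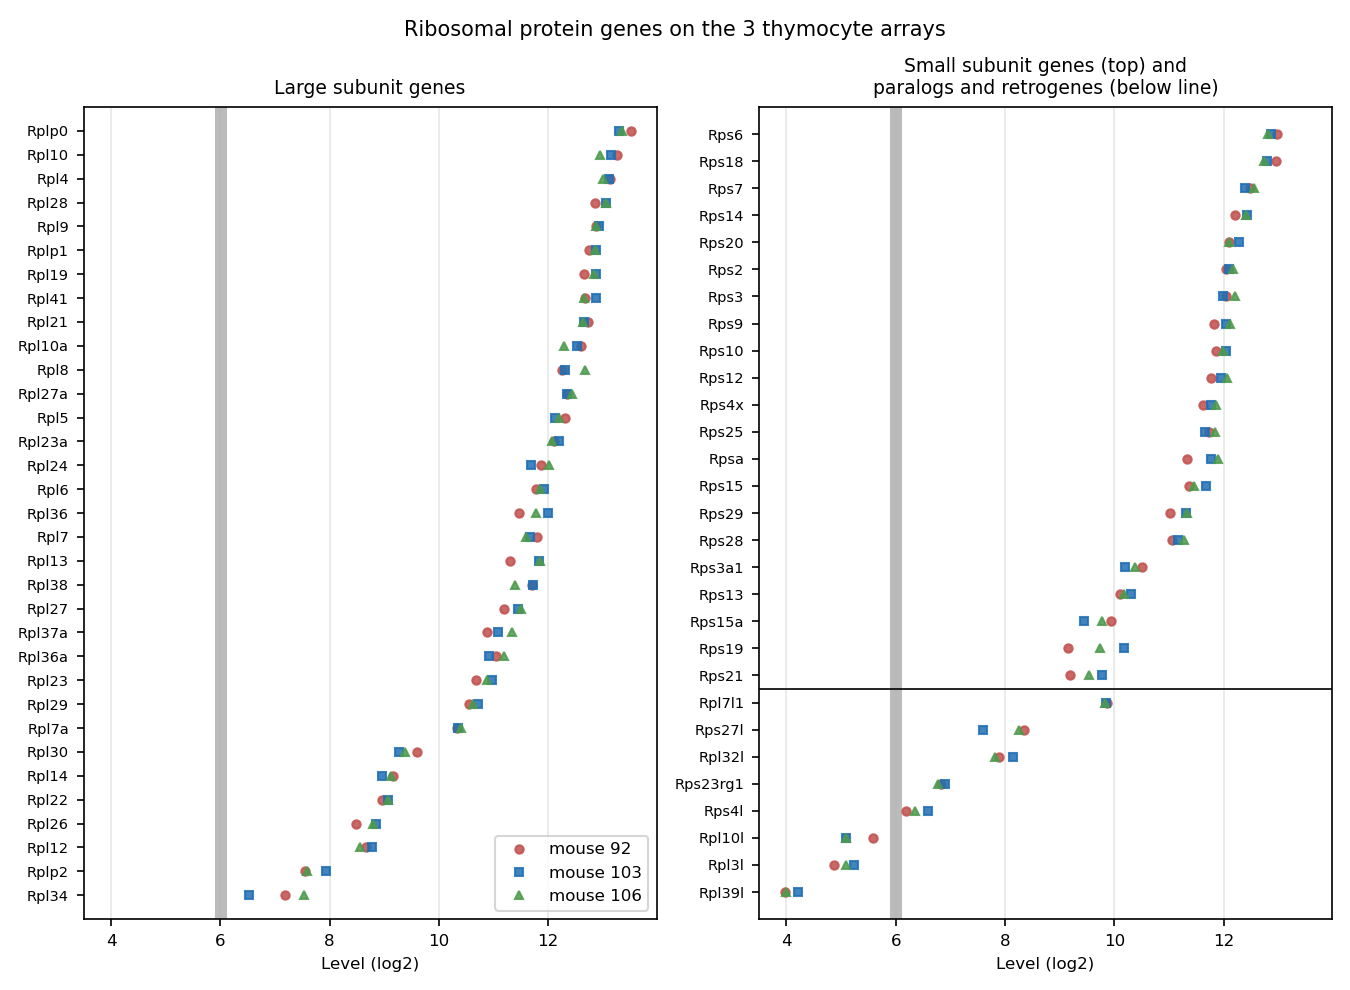
Level on the log2 scale (x axis) of the 62 cytosolic ribosomal protein genes in mouse 92 (circles), mouse 103 (squares) and mouse 106 (triangles), with the range of the background thresholds, 5.91 to 6.10, as a grey band. All 54 standard subunit genes lie to the right of the band on every array and Rpl3l, Rpl10l and Rpl39l lie to its left; the order of genes is for reading only, because probes differ in affinity.

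Promoters are shown for genes of each kind, since shared promoter elements are a feature of this family that the naming rule did not use. RefSeq promoter windows of assembly GRCm38.p6, from 250 bases before to 50 after the transcription start, were matched to 50 of the 62 genes and gave 59 windows. Each sequence below runs 5′ to 3′ from 100 bases before to 20 after the first listed start. Capitals mark matches, on either strand, to CCGGAAG (bound by ETS factors), GCCATNTT (YY1), TCTCG directly followed by its reverse complement (CGCG box), CACGTG (E box), GCGCA directly followed by its reverse complement (NRF1) or TATAA, and uninterrupted runs of at least 8 C or T on the transcribed gene's own strand within 50 bases of the start. Neighbouring capitals can belong to overlapping matches. Rps6 (chr4:86857348-86857467 on the minus strand), the target of S6 kinase, Rps18 (chr17:33955646-33955765 on the minus strand) and Rps10 (chr17:27635225-27635344 on the minus strand) represent standard genes with an ETS match and a pyrimidine run at the start.
Rps6: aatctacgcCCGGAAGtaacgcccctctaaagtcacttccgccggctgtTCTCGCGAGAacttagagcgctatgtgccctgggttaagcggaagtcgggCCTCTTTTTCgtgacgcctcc
Rps18: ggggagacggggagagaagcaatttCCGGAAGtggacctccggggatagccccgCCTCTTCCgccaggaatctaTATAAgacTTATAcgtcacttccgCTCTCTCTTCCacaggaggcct
Rps10: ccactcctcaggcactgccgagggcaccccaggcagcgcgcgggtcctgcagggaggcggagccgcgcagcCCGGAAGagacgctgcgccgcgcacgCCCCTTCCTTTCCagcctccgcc
The next are the 6 genes with the widest ranges between mice: Rps19 (chr7:24884492-24884611 on the plus strand), Rpl34 (chr3:130730379-130730498 on the minus strand), the paralog Rps27l (chr9:66945986-66946105 on the plus strand), Rpsa (chr9:120127666-120127785 on the plus strand), Rps21 (chr2:180257279-180257398 on the plus strand) and Rpl13 (chr8:123102250-123102369 on the plus strand). The stretch of Rpsa holds no match.
Rps19: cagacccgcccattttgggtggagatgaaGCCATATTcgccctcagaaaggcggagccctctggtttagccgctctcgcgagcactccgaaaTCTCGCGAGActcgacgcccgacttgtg
Rpl34: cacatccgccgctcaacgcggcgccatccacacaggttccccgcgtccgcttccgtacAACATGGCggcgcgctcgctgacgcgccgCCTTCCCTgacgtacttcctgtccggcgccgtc
Rps27l: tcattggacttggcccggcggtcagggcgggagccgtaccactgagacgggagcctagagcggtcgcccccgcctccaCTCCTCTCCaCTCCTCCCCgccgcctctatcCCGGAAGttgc
Rpsa: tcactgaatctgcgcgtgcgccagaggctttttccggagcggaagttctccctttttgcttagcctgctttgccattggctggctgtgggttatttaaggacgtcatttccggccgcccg
Rps21: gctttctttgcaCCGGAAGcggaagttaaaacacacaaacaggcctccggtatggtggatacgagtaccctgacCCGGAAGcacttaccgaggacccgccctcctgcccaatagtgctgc
Rpl13: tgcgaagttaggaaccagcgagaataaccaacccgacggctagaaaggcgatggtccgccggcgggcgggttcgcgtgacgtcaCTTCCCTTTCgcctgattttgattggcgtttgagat
The last are paralogs not above background, Rpl3l (chr17:24727726-24727845 on the plus strand) and Rpl39l (chr16:10170128-10170247 on the plus strand).
Rpl3l: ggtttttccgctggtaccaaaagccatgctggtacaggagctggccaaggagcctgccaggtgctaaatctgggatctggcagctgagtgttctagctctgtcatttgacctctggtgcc
Rpl39l: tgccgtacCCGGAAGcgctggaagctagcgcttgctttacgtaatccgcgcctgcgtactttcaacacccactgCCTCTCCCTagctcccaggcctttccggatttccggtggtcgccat

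A pyrimidine run within 50 bases of the start was present in 71.2% of the 59 ribosomal protein windows, 35.7% of all 32851 windows and 32.4% of the 12356 windows of genes above background. Within the narrower stretch from 15 bases before to 20 after the start the shares were 33.9%, 13.7% and 13.8%. In Rps6, Rps18 and Rps10 the run crosses the annotated start. CCGGAAG occurred in 33.9% of ribosomal protein windows, against 8.86% of all and 16.7% of windows of genes above background. GCCATNTT occurred in 18.6%, 6.05% and 7.96% in the same order, and Rps19 and Rps15a are examples. The CGCG box was rare elsewhere, with 11.9% of ribosomal protein windows, 0.466% of all and 0.971% of those of genes above background; its 7 windows belonged to Rpl10a, Rpl12, Rpl26, Rps19, Rps28 and Rps6. CACGTG (11.9%, 7.15% and 9.86%), the NRF1 motif (3.39%, 0.971% and 2.02%) and TATAA (23.7%, 24.9% and 13.3%) complete the set. Several windows of 1 gene are counted separately and are not independent. The 7 ribosomal protein windows with CACGTG belonged to 5 genes, and the NRF1 motif was in only 2 windows. These are letter matches, and binding was not measured.

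The 3 paralogs below background are described by their first listed windows. That of Rpl3l held 2 CG dinucleotides, the lowest number among the ribosomal protein windows, whose median was 21, against 7 for all windows and 20 for those of genes above background. It also held a pyrimidine run, which lies after the printed stretch. The window of Rpl39l held 17 CG dinucleotides, an ETS match and a pyrimidine run, and that of Rpl10l 13 CG dinucleotides and no match in the stretch around the start.

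**Figure D2:**
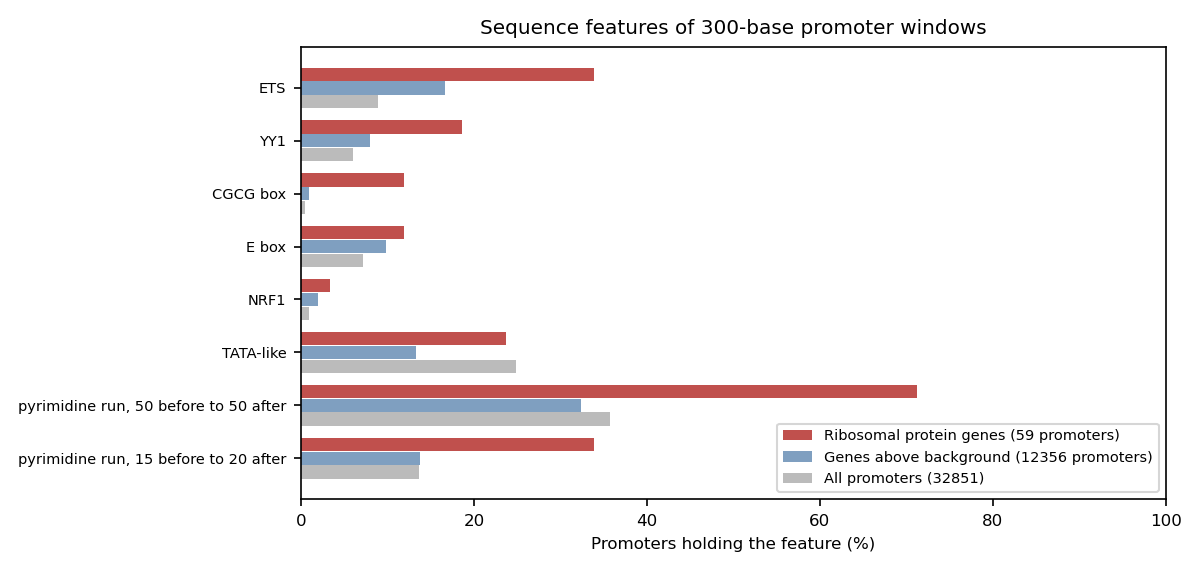
Share of 300-base promoter windows that hold each sequence feature (x axis, percent) for ribosomal protein genes (59 windows), genes above background (12356) and all genes (32851). The pyrimidine run within 50 bases of the start is in 71.2% of ribosomal protein windows and 32.4% of those of genes above background, and TATAA is in 23.7% and 13.3%.

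In the large subunit, the genes of the stalk, which recruits and activates the translation factors, were read in full. Rplp0, the stalk's anchor, had levels of 13.51, 13.30 and 13.35 in mice 92, 103 and 106. Its partners Rplp1 and Rplp2 had levels of 12.75, 12.87 and 12.86, and of 7.54, 7.93 and 7.58. Rpl12, at the stalk's base, had levels of 8.67, 8.78 and 8.56. Mouse 103 was highest for Rplp1, Rplp2 and Rpl12, while Rplp0 was highest in mouse 92, and the ranges were 0.12 to 0.39. Over all named genes, mouse 103 was highest in 9113 of 19938. For Rplp1, mouse 106 minus mouse 103 was only -0.0067, and 1 of its 2 probe sets placed mouse 106 higher.

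Large subunit genes mutated in human T cell leukaemia are Rpl5, Rpl10 and Rpl22. Rpl5, which with Rpl11 and 5S RNA can bind the p53 regulator Mdm2, had levels of 12.30, 12.13 and 12.20. Rpl10, an X-linked gene whose protein joins the subunit late, had levels of 13.27, 13.15 and 12.95. Rpl22, which mice need to make alpha-beta T cells in normal number, had levels of 8.96, 9.07 and 9.07. Rpl5 and Rpl10 were highest in mouse 92, where Rpl22 was lowest. Rpl36a, also X-linked, had levels of 11.05, 10.92 and 11.20, and Rpl38, known for its part in translating Hox mRNAs, had levels of 11.71, 11.71 and 11.39. The ranges of these genes were 0.11 to 0.32, and all had a limma unadjusted p above 0.05.

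Mouse 92 was lowest for several other large subunit genes. Rpl13 had levels of 11.30, 11.83 and 11.85, Rpl36 of 11.47, 11.99 and 11.77, and Rpl27, a Diamond-Blackfan gene, of 11.19, 11.46 and 11.49. Rpl26, which lies near the exit of the peptide tunnel and can bind p53 mRNA, had levels of 8.48, 8.85 and 8.79. Rpl34 was different: its levels of 7.19, 6.53 and 7.53 were lowest in mouse 103 and spanned a 2.01-fold range. The value in mouse 103 lay near the background threshold of that array, 6.10, and below its 99th percentile threshold of 7.00. At the other end, Rpl9 (12.88, 12.93 and 12.87), Rpl7a (10.32, 10.35 and 10.39), Rpl21 (12.72, 12.65 and 12.64) and Rpl27a (12.35, 12.35 and 12.43) differed by less than 0.10 between any mice.

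In the small subunit, Rps19, the gene most often mutated in Diamond-Blackfan anaemia, had the widest range. Its levels of 9.16, 10.17 and 9.74 spanned 1.01, or 2.01-fold, lowest in mouse 92 and highest in mouse 103. The widest ranges of the family, those of Rps19, Rpl34 and Rps27l, each rest on 1 probe set, as does that of Rps15a. By contrast, 39 of the 62 genes are averages of several probe sets. Rpsa, also known as the laminin receptor precursor, had levels of 11.32, 11.78 and 11.90. Rps21, a binding partner of Rpsa in the ribosome, had levels of 9.20, 9.77 and 9.53. Both were lowest in mouse 92. Rps15a had levels of 9.94, 9.44 and 9.77, lowest in mouse 103.

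The other Diamond-Blackfan genes of this subunit had smaller ranges. Rps7 had levels of 12.48, 12.39 and 12.56, Rps10 of 11.85, 12.05 and 11.98, Rps28 of 11.05, 11.17 and 11.27, and Rps29 of 11.01, 11.32 and 11.33. Over the 8 measured Diamond-Blackfan genes of both subunits, the median difference was 0.23 for mouse 103 minus mouse 92, with 6 of 8 higher, and 0.26 for mouse 106 minus mouse 92, with 7 of 8 higher, against 59.3% and 49.3% of all named genes. The 8, of 17 such genes listed, include Rps19. In the family as a whole 64.5% and 62.9% of the 62 genes were higher, with medians of 0.11 and 0.084. Rps6, whose protein is the phosphorylated readout of mTOR signalling, had levels of 12.97, 12.87 and 12.82, highest in mouse 92. Rps3, which also has roles in DNA repair and NF-kB binding, had levels of 12.05, 11.99 and 12.20, and the X-linked Rps4x had levels of 11.62, 11.77 and 11.86. Fau, outside the rule, had levels of 11.29, 11.48 and 11.29.

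Among the paralogs, Rpl3l, Rpl10l and Rpl39l were the ones not above background. Rpl3l, the heart and skeletal muscle counterpart of Rpl3, had levels of 4.87, 5.23 and 5.08. Rpl10l, known from the testis, had levels of 5.58, 5.09 and 5.09. Rpl39l, also known from the testis, had levels of 3.97 and 3.99 in mice 92 and 106, and mouse 103 stood 0.23 above mouse 92. A reading this low sets no more than an upper bound on the transcript. Rpl7l1 had levels of 9.87, 9.84 and 9.84, the smallest range of the family at 0.034. Rps27l, a paralog of Rps27 that p53 induces, had levels of 8.35, 7.59 and 8.26, and mouse 103 stood 0.67 below its nearest neighbour. Rpl32l had levels of 7.90, 8.14 and 7.82, the retrogene Rps23rg1 of 6.83, 6.90 and 6.77, and Rps4l of 6.19, 6.58 and 6.35, just above the thresholds.

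The spread between mice was tested by setting each gene's variance against the limma prior for its level, over 13314 genes above background on at least 1 array. Limma with Benjamini-Hochberg adjustment called 0 of the 59 tested ribosomal protein genes and 30 of all tested genes, 0.225%. At an unadjusted p under 0.05 there were 5 of 59, against 4.84% of all tested genes, and a robust prior called 0 of 59 and 0.330% of all. The 5 were Rps19 (limma with Benjamini-Hochberg, adjusted p = 0.312), Rpl34 (adjusted p = 0.368), Rps27l (adjusted p = 0.613), Rpl13 (adjusted p = 0.863) and Rpsa (adjusted p = 0.876). This unadjusted list depended on the processing, and quantile scaling gave 7 genes. With a prior without trend, Rpl13 and Rpsa had limma unadjusted p-values of 0.0515 and 0.0591. With the highest probe set per gene, Rpsa had a limma unadjusted p of 0.162. The median SD over 3 mice was 0.12 in the 62 genes and 0.13 in all tested genes. The 21 genes not named one by one, Rpl4, Rpl8, Rpl19, Rps14 and Rps18 among them, had ranges of 0.12 to 0.47, at most 1.38-fold. Leaving out mouse 92 made Rpl34 the only ribosomal protein gene called (limma, Benjamini-Hochberg adjusted p = 0.00350). Leaving out mouse 106 made Rps19 the only one (limma, Benjamini-Hochberg adjusted p = 0.00257). Each of these fits kept the lowest and the highest mouse of the gene called. For Rpl34 the lowest value, 6.53 in mouse 103, lay near background. Their prior had infinite degrees of freedom, so its variance was taken as known and these p-values may be too small. Calls over all tested genes also rose when a mouse was left out.

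**Figure D3:**
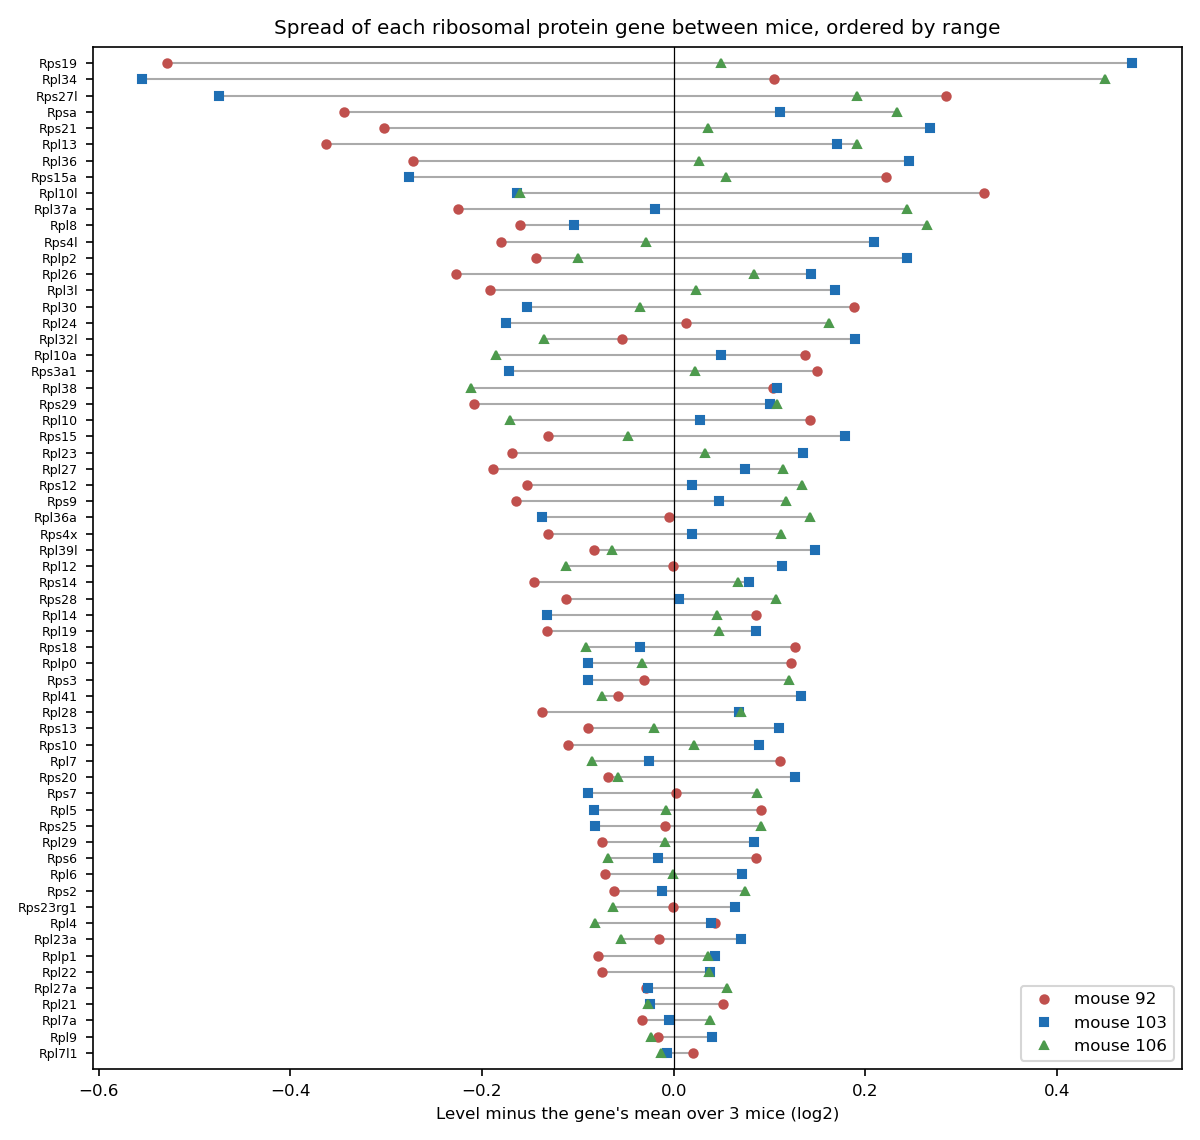
Level of each of the 62 ribosomal protein genes in each mouse minus the gene's mean over 3 mice (x axis, log2), ordered by the range between mice (grey line). Rps19 spans 1.01, Rpl34 spans 2.01-fold, the median range is 0.23, and Rpl7l1 at the bottom spans 0.034.

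As a family the genes lay slightly higher in mice 103 and 106 than in mouse 92. The median difference was 0.11 for mouse 103 minus mouse 92, a 1.08-fold step, with 40 of 62 genes higher in mouse 103, against 59.3% of all named and 52.0% of all tested genes, so that the count is close to the share of all named genes. For mouse 106 minus mouse 92 it was 0.084, with 39 of 62 higher, against 49.3% and 45.7%. Between mice 103 and 106 it was -0.0062, with 28 of 62 higher in mouse 106, against 37.8% and 41.3%. Mouse 92 had the lowest level in 33 of 62 genes, against 39.4% of all named and 35.1% of all tested genes. Mouse 103 was lowest in 14 (24.2% and 28.3%) and mouse 106 in 15 (36.4% and 36.6%). The medians over all named genes were 0.059, -0.0041 and -0.061 in the order of the 3 comparisons, and those over all tested genes 0.014, -0.024 and -0.043.

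Strongly read genes as a whole lay on the opposite side. Among the 533 named genes with a mean level of at least 11, which include 39 of the 62, the medians were -0.12 for mouse 103 minus mouse 92 and -0.099 for mouse 106 minus mouse 92, and 27.8% and 31.0% were higher. These medians came nearer to 0 under quantile scaling (-0.053 and -0.066, with 38.8% and 36.6% higher) and cyclic loess scaling (-0.043 and -0.053, with 41.3% and 40.0% higher). The 39 ribosomal protein genes in that range had medians of 0.086 and 0.11, with 25 and 26 higher. This comparison was added after the data were examined. The family's medians kept their sign when the arrays were scaled by quantiles, by their medians or by cyclic loess. Those of the 533 genes did so only in the comparisons with mouse 92. Their median for mouse 106 minus mouse 103 was 0.013, and it was -0.013 and -0.014 under quantile and cyclic loess scaling. How the differences in other cells' markers between the mice bear on these shifts was not tested; in a mixed sample fewer cells of a type and less RNA per cell cannot be told apart.

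By subunit, the medians for both comparisons with mouse 92 were above 0. For mouse 106 minus mouse 92, 17 of 21 small and 19 of 33 large subunit genes were higher, with medians of 0.14 and 0.071. Over all named genes 49.3% were higher in mouse 106, with a median of -0.0041. For mouse 103 minus mouse 92 the counts were 14 of 21 and 21 of 33, with medians of 0.17 and 0.056. Over all named genes 59.3% were higher in mouse 103, with a median of 0.059. Both mouse 103 counts are close to that share, and the large subunit median is close to that median. The 8 paralogs and retrogenes had medians of 0.15 for mouse 103 minus mouse 92 and -0.048 for mouse 106 minus mouse 92. Under quantile and cyclic loess scaling the large subunit medians were 0.12 and 0.12 for mouse 103 and 0.11 and 0.12 for mouse 106, and those of the small subunit 0.24 and 0.24, and 0.17 and 0.18. The difference between subunits was not tested.

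**Figure D4:**
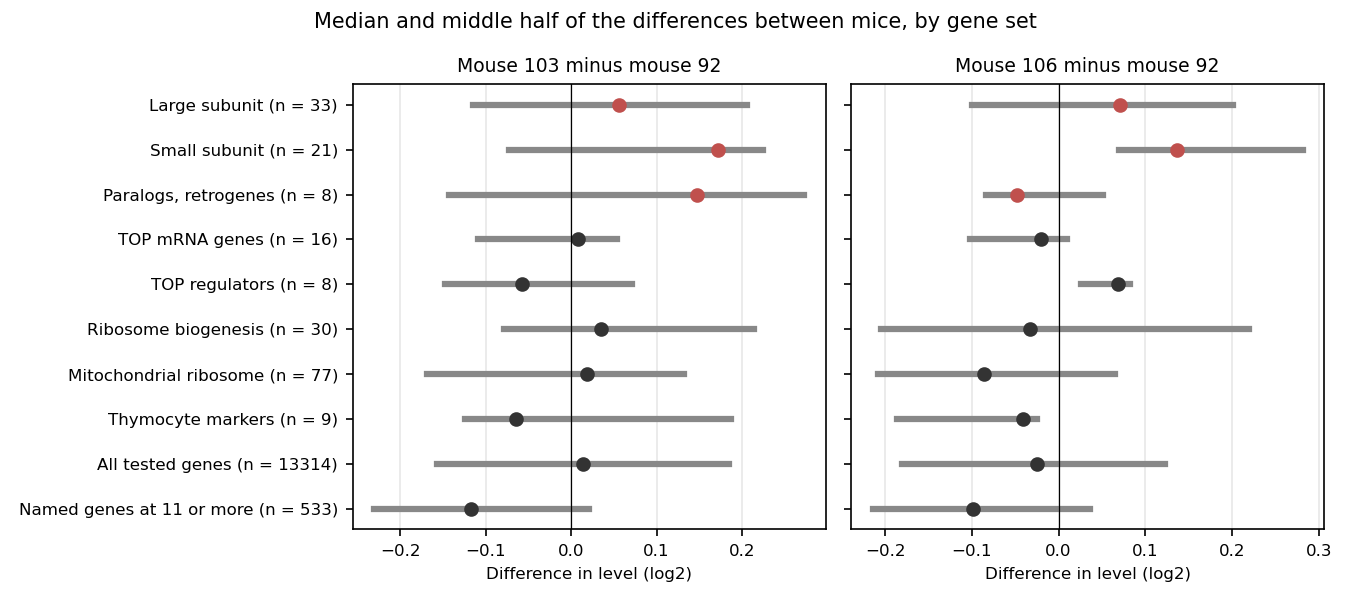
Median (point) and middle 50% (bar) of the log2 differences mouse 103 minus mouse 92 (left) and mouse 106 minus mouse 92 (right) for ribosomal protein gene groups (red) and comparison sets (black). Small subunit genes have medians of 0.17 and 0.14, and named genes at a level of 11 or more have medians of -0.12 and -0.099.

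The direction was shared by the separate probe sets of most genes, in the family and among other genes alike. Of the 39 genes with several probe sets, 32 had all of them on the same side for mouse 103 against mouse 92 (22 higher, 10 lower), as did 67.0% of 960 other genes. For mouse 106 against mouse 92 there were 30 (21 higher, 9 lower), against 63.9%. For mouse 106 against mouse 103 there were 22 of 39, a smaller share than the 60.3% of other genes. The 3 probe sets of Rpl41 held identical values and so could only agree. All 9 probe sets of Rpl13, all 9 of Rpl36, all 5 of Rpsa, all 7 of Rps28 and all 14 of Rps12 were higher in both mice than in mouse 92. All 8 probe sets of Rps6, all 7 of Rps18 and all 6 of Rpl10 were lower in both. Rps12 is a small subunit protein, and its averaged levels were 11.77, 11.94 and 12.06. The count is not one of independent readings: 19 probe sets of 5 genes held values identical to another probe set of the same gene, and related copies can share probes.

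In 32 of the 39 genes the probe set means lay further apart than the mice; the exceptions were Rpl10a, Rpl28, Rpl36a, Rpl38, Rpl41, Rps7 and Rps10. The median spread between the probe set means of a gene was 0.63, and 11 genes had a spread over 1: Rpl7a, Rpl21, Rpl23, Rpl27a, Rplp1, Rps2, Rps12, Rps15, Rps21, Rps29 and Rpsa. Rpl23, which can also bind Mdm2, was the extreme, with probe set means of 9.30 and 12.38. Its first probe set had levels of 8.97, 9.45 and 9.47 in mice 92, 103 and 106 and its second 12.37, 12.49 and 12.27, so that only the first placed mouse 106 above mouse 92. The averaged levels were 10.67, 10.97 and 10.87. In Rps21, by contrast, both probe sets, at 8.29, 8.70 and 8.65 and at 10.10, 10.83 and 10.42, were lowest in mouse 92. Rps2 and Rps15 had averaged levels of 12.04, 12.09 and 12.18 and of 11.37, 11.68 and 11.46.

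**Figure D5:**
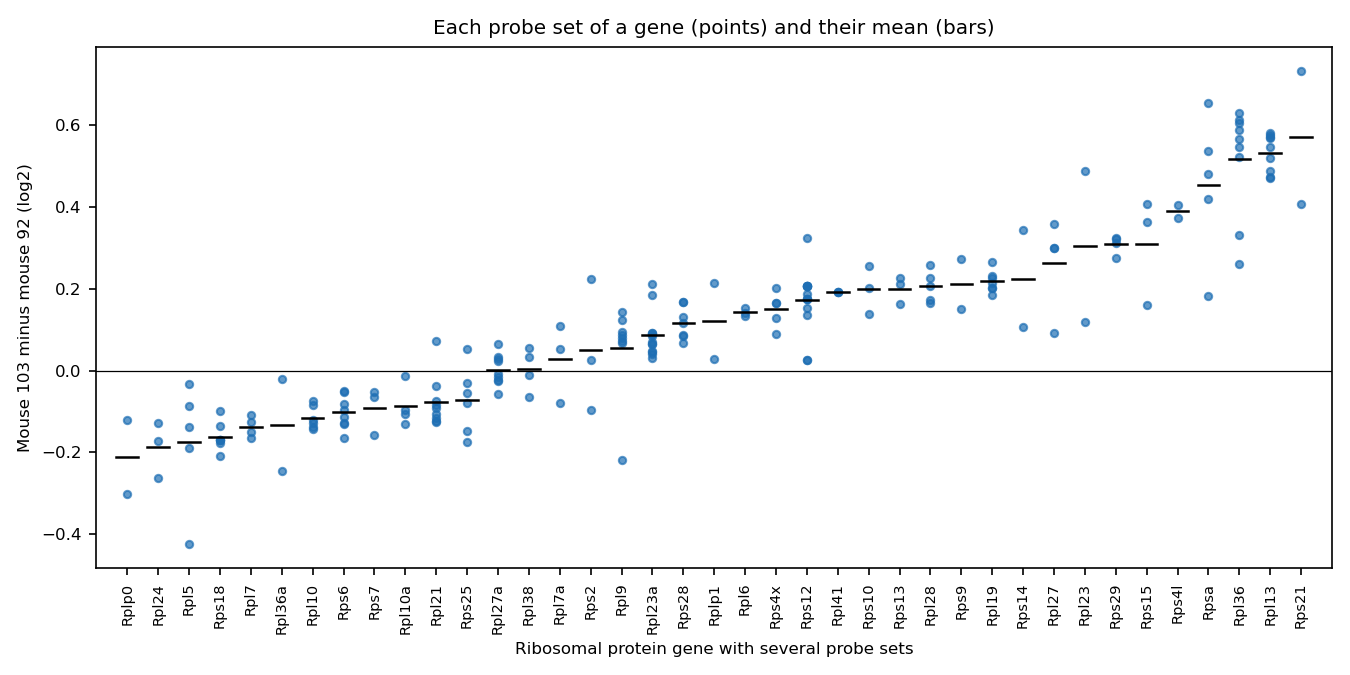
Difference mouse 103 minus mouse 92 (y axis, log2) of each probe set (points) and their mean (bars) for the 39 ribosomal protein genes with several probe sets. In 32 genes all points lie on 1 side of 0; those of Rpl13, Rpl36, Rpsa and Rps21 all lie above it.

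Genes that work with ribosomal proteins were set beside the family. Limma with Benjamini-Hochberg adjustment called 0 of 16 translation factor and other genes with TOP mRNAs, 0 of 8 regulators of TOP translation, 0 of 30 ribosome biogenesis genes and 0 of 77 mitochondrial ribosomal protein genes, with 1, 1, 1 and 5 at an unadjusted p under 0.05. The 16 genes with TOP mRNAs, which hold Npm1, Tpt1, Naca and Btf3 beside translation factors, had medians of 0.0080 and -0.021 for mice 103 and 106 minus mouse 92, and their signs changed with the scaling of the arrays. Eef2, the translocation factor, had levels of 12.84, 12.85 and 12.85, and Eif4b, a cofactor of the initiation helicase, of 10.87, 10.87 and 10.89. Npm1, a nucleolar assembly chaperone, had levels of 11.23, 10.40 and 10.83, highest in mouse 92 (limma unadjusted p = 0.00596, Benjamini-Hochberg adjusted p = 0.496). Eif3e, a subunit of initiation factor 3, had levels of 10.42, 10.06 and 10.30.

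The regulators of TOP translation had medians of -0.058 and 0.069 for mice 103 and 106 minus mouse 92, the first of which changed sign with the scaling. Rheb, the GTPase that activates mTOR complex 1, had levels of 9.72, 8.92 and 8.87, highest in mouse 92 (limma unadjusted p = 0.00331, Benjamini-Hochberg adjusted p = 0.365). Larp1 had levels of 10.02, 9.94 and 10.34. The cap-binding gene Eif4e (8.38, 8.35 and 8.31) and the S6 kinase gene Rps6kb2 (9.11, 9.17 and 9.19) varied by less than 0.10.

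Ribosome biogenesis genes had medians of 0.035 and -0.033 for mice 103 and 106 minus mouse 92. Of 30 genes, 18 and 13 were higher, against 59.3% and 49.3% of all named genes. Under quantile and cyclic loess scaling the first median was 0.12 and 0.12, with 23 and 22 of 30 higher. The second changed sign to 0.035 and 0.028. All named genes also moved: under quantile scaling 63.3% were higher in mouse 103, with a median of 0.076. Polr1a, the largest subunit of RNA polymerase I, had levels of 8.51, 8.52 and 8.57, and Bop1, a pre-rRNA processing factor, of 9.40, 9.43 and 9.36. Nop10, a protein of the pseudouridylation snoRNPs, had levels of 10.67, 10.15 and 10.19, and Grwd1, a histone-binding chaperone with a part in ribosome assembly, of 7.86, 8.29 and 8.37. Nop10 was highest and Grwd1 lowest in mouse 92. Mitochondrial ribosomal protein genes, a list drawn up after the data were examined, had medians of 0.019 and -0.086. Of 77 genes, 41 and 26 were higher, against the same 59.3% and 49.3% of all named genes.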

How the data were processed

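Total RNA from 3 thymocyte samples labelled wt, read here as 3 mice, was hybridised to Affymetrix MoGene 1.0 ST arrays. The authors deposited log2 levels, made with Affymetrix Expression Console per the submitters' processing notes; the log2 scale was inferred from values between 1.76 and 14.96, while the sources used here do not give background correction, summarisation or normalisation. Of 35557 probe sets, 21789 had 1 symbol, 1621 had several and 12147 were not listed; probe sets were averaged per gene. Limma 3.58.1 (R 4.3.3) fitted an intercept over 13314 genes, with a trended, non-robust prior of 10.4 degrees of freedom. An upper-tail F test set the variance of a gene against that prior, with Benjamini-Hochberg adjustment at 0.05. The procedure was tested on data simulated from that prior. Such data cannot check whether the prior holds for these arrays. P-values measure only the spread between these samples, which may be technical.

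Genes were named by rule: paralogs, members not above background, the 8 largest and 5 smallest ranges, members of functional lists, members whose probe sets differ by over 1, and, of other lists, the 2 largest and 2 smallest ranges. Members and lists were chosen with earlier results of these data known. Promoters came from RefSeq (GRCm38.p6); no build is stated for the array. Alternatives changed scaling, probe set choice, background, prior, filter and the mice included.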

Additional observations from a re-analysis of the deposited data

How the results depend on the processing

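The count of ribosomal protein genes above background was 59 under each scaling, with the highest probe set per gene and without each mouse, and 56 with the 99th percentile as background. Limma called 0 of them under each scaling, probe set choice, prior and filter; leaving out each mouse in turn gave 0 to 1 calls and 48 to 84 over all tested genes. Over all genes limma called 18 under quantile and 18 under cyclic loess scaling, against 30. The cause was not tested. The median differences of the family kept their sign: 0.10 to 0.18 for mouse 103 minus mouse 92, 0.057 to 0.13 for mouse 106 minus mouse 92 and -0.042 to -0.0062 for mouse 106 minus mouse 103. Single genes were less stable, since 7, 12 and 8 of 62 changed sign in these comparisons under some scaling or probe set choice. With the highest probe set, the levels of 24 of 74 named genes moved by more than their SD. Without the 8 paralogs and retrogenes, an alternative added after seeing the data, the medians were 0.11, 0.093 and -0.0021. No paired analysis was possible because the labels give only 1 group. The low RNA integrity number and 3 arrays limit all values.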
